A study of Mus musculus with 8 samples.

Results

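Wnt ligands, their Frizzled and LRP receptors, the R-spondins with their LGR receptors, the secreted SFRP, DKK and WIF1 antagonists and the feedback gene Axin2 were examined in muscle stem cells (MuSCs) of mice fed a vitamin A-free (VA-free) or a control diet. Members were picked out by a rule on gene symbols, set with earlier results of these data known, and 48 of the 36047 genes with estimated counts carried such a symbol. They comprised 19 Wnt ligands, 4 R-spondins, 10 Frizzled receptors, 2 LRP co-receptors, 3 LGR receptors, 4 SFRP genes, 4 DKK genes, Wif1 and Axin2. All animals were male Pax7CreERT2-Rosa26nTnG mice, aged 5 to 6 months, in which tamoxifen (75 mg/kg on each of 5 days) switches the nuclei of Pax7-expressing cells from red to green fluorescence, so that the tamoxifen and the reporter were common to both diets. The VA-free diet was given for 8 weeks, and control mice ate normal chow. GFP-positive, DAPI-negative cells were sorted from gastrocnemius and quadriceps, and the reporter marks Pax7 lineage at the time of tamoxifen, which limits the group to cells in which recombination took place. The RNA of a mouse was split into technical replicates A and B, and 8 libraries entered the comparison, from 3 VA-free mice (libraries 1B, 2A, 3A, 3B) and 2 control mice (libraries 1A, 1B, 2A, 2B).

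Wnt proteins are secreted lipid-modified ligands that bind a Frizzled receptor together with LRP5 or LRP6, which stops the destruction complex from degrading beta-catenin, or that signal through Frizzled receptors and other co-receptors without beta-catenin. SFRP proteins and WIF1 bind Wnt ligands outside the cell, DKK1 and DKK2 bind the LRP co-receptors, and R-spondins with their LGR receptors keep Frizzled receptors at the cell surface. In skeletal muscle these signals are known for roles in MuSC renewal, in the switch from proliferation to differentiation, and in exchange between MuSCs, fibro-adipogenic progenitors and fibers.

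The libraries held between 44831232 and 88650428 estimated counts. MuSC markers were abundant in every library (Pax7, the transcription factor that defines these cells, at 97.5 to 148 CPM on VA-free and 63.7 to 92.4 CPM on control), where CPM are counts per 1000000 after TMM normalization. The libraries also differed in markers of other cells. The summed level of 12 MuSC markers was 8646 to 9702 CPM on VA-free and 3035 to 5753 CPM on control, and 11 of them were higher on VA-free. All 12 endothelial markers (258 to 353 against 1348 to 3385 CPM, summed), 10 of 12 Schwann cell markers (54.9 to 68.4 against 320 to 742 CPM), 8 of 9 tenocyte markers (45.9 to 75.2 against 694 to 1233 CPM) and 4 of 5 erythroid markers (28.8 to 243 against 1302 to 1909 CPM) were lower on VA-free. Of the remaining lists, 6 of 10 pericyte and smooth muscle markers (1745 to 2034 against 2820 to 3487 CPM), 5 of 14 macrophage markers (28.5 to 170 against 204 to 989 CPM) and 7 of 12 myofiber markers (348 to 446 against 525 to 648 CPM) were lower. Among 11 markers of fibro-adipogenic progenitors 7 were lower, whereas their sum was higher on VA-free (12111 to 13279 against 4808 to 10279 CPM), where Col3a1, which was higher on VA-free, made up most of it. No marker of these lists was at 0 in all VA-free libraries. Of 15 dissociation and immediate early genes, 3 were higher and 3 lower. In a bulk library, fewer cells of a type and less RNA per cell cannot be told apart, and the part of these markers in the results that follow was not tested. Control 2A stood apart from control 2B of the same mouse, with 13 of 36 tested members over 2-fold apart and 12 of these lower in 2A. In control 1 the number was 5 and in VA-free 3 it was 0. Among the 4 control libraries 2A was the lowest for 20 of 36 members and for 10 of 15 receptors. Members whose call changes without it are therefore named below.

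The diets were compared over 5 mice by the quasi-likelihood test of edgeR, with p-values adjusted by Benjamini-Hochberg over all 17997 genes that passed its filter on low counts, at a threshold of 0.05. A log2 fold change above 0 means a higher level on VA-free. Of the 48 members 36 passed the filter, 13 were lower on VA-free, 6 were higher and 17 did not pass the threshold. Across all genes tested, 41.4% passed the threshold, 22.5% as lower and 18.9% as higher, so that a call is common in this comparison. Without control 2A 14 members were lower (Sfrp2 in addition) and 2 higher, without control 2B 10 and 2, and without any 1 of the VA-free mice 3 were higher. Calls over all genes changed in these fits too. They numbered 7459 of 17997 in the main fit, 7110 of 17957 without control 2A and 4476 of 17769 without control 2B. Without VA-free 1, 2 or 3 they numbered 5606, 5953 and 5659. In the main fit the members' share was 36.1% for lower and 16.7% for higher. Rspo3 and Rspo4, which had almost no VA-free counts, passed the filter only through the control libraries where they are high, so the counts of lower members that include them are a description and no support for a difference from the background. With a filter of at least 1 CPM in 2 mice both drop out and 11 members were lower. Of these, Rspo1, Dkk2, Dkk3, Wif1 and Wnt6 were under 1 CPM in every VA-free mouse. They pass that filter only through the control mice, so this count is a description as well. The median log2 fold change of tested members was -0.06, against 0.00 over all genes tested, with 18 members above 0 and 18 below. All 4 VA-free libraries lay below all 4 control libraries for 11 of 36 members (30.6%, against 21.4% of genes tested) and above them for 6 (16.7%, against 19.9%). By role, of 20 tested secreted members 11 were lower and 0 higher in edgeR (Wnt9a alone was higher at an unadjusted p under 0.05), whereas of 15 tested receptors 6 were higher and 2 lower. Other fits called secreted members higher, namely DESeq2 Wnt9a and Wnt7b, edgeR Wnt7b without a filter or without VA-free 3B and Wnt9a without control 1 or control 1B, and limma on TPM Wnt4 and Wnt9a. These counts describe the members, and the difference between the roles was not tested.

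**Figure D1:**
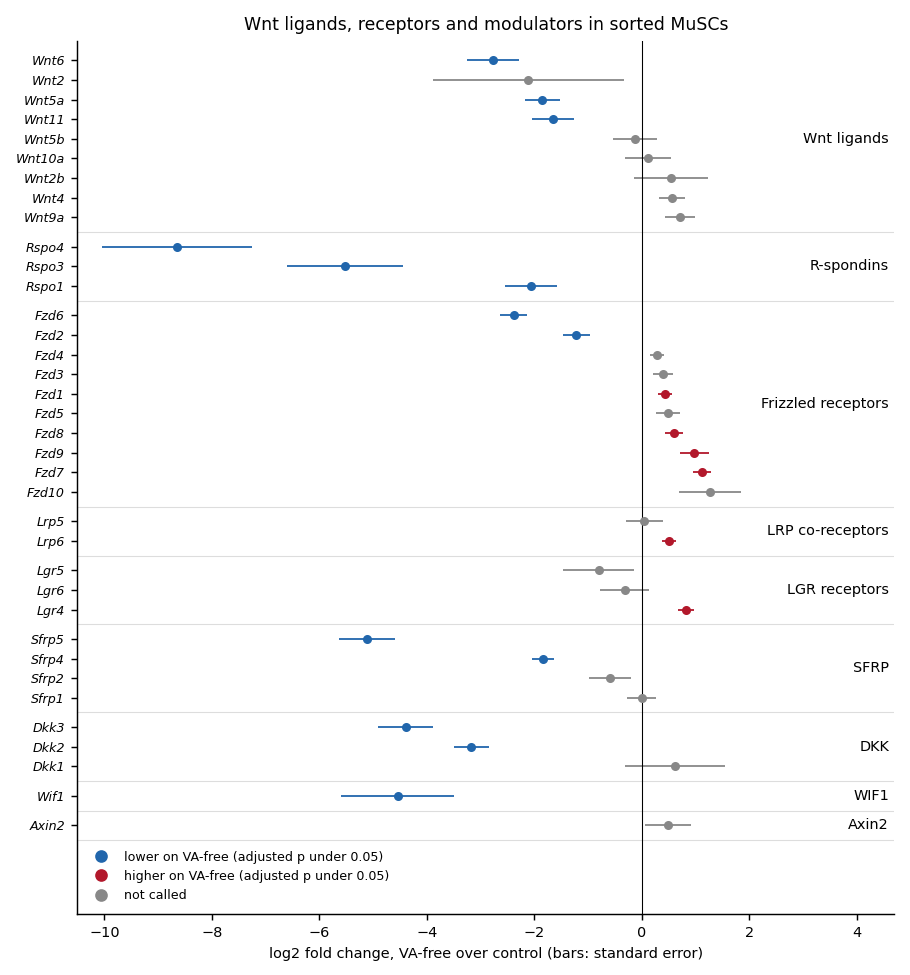
Log2 fold change, VA-free over control, of the 36 tested members grouped by role, as points with bars of 1 standard error from edgeR (3 VA-free and 2 control mice). Points in blue (13) were lower and in red (6) higher at an adjusted p under 0.05. The blue points lie mainly among ligands, R-spondins and antagonists and the red ones among receptors.

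The summed level of the secreted antagonists was 16.6 ± 2.69 CPM on VA-free (SD, n = 3 mice) and 83.7 ± 9.78 CPM on control (n = 2). By library the sum was 16.7, 13.7, 18.7 and 18.9 CPM on VA-free (order 1B, 2A, 3A, 3B throughout) and 94.8, 79.3, 83 and 76.3 CPM on control (order 1A, 1B, 2A, 2B), so the diets did not overlap. Of 9 members 8 were tested, and 5 were lower (Sfrp5, Sfrp4, Dkk2, Dkk3 and Wif1). Of the marker sums given above, the endothelial, Schwann cell, tenocyte, erythroid, pericyte and smooth muscle, macrophage and myofiber sums were also lower on VA-free. The MuSC and fibro-adipogenic progenitor sums were higher. Of the 11 fibro-adipogenic progenitor markers, however, 7 were lower and only 1, Col3a1, was higher, and Col3a1 made up most of that sum on VA-free. The part of any of these cells was not tested.

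Sfrp5, a secreted Frizzled-related protein that binds Wnt ligands, had 0.331, 1.06, 1.26 and 1.31 CPM on VA-free and 43.6, 29, 22.4 and 27.6 CPM on control. The lowest control library was thus well above the highest VA-free library. This is a log2 fold change of -5.12 ± 0.52 (SE), or a level 34.8-fold lower on VA-free, with an adjusted p of 0.00058. Sfrp4, of the same family, had 5.24, 4.17, 4.43 and 4.59 CPM on VA-free and 14.2, 15.2, 23.8 and 15.1 CPM on control, with control 2A the highest. The diets did not overlap, with a log2 fold change of -1.84 ± 0.20 (adjusted p = 0.000719). Sfrp1, another of the family, had 8.69, 5.43, 8.61 and 9.88 CPM on VA-free and 6.63, 9.14, 3.83 and 11.7 CPM on control, and the diets overlapped throughout. Sfrp1 had a log2 fold change of 0.00 ± 0.27 (adjusted p = 0.992). Per length, Sfrp5 (0.88 ± 0.475 TPM) was below Sfrp4 (4.48 ± 0.692 TPM) and Sfrp1 (3.32 ± 0.91 TPM) on VA-free, and above both on control (22.5 ± 5.89, 13.1 ± 2.3 and 2.49 ± 0.0317 TPM), where TPM, transcripts per 1000000, take account of length.

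Dkk3, a divergent member of the DKK family, is counted with the antagonists by its symbol only. Dkk3 had 0.245, 0.519, 1.12 and 0.664 CPM on VA-free and 10.2, 7.55, 18.2 and 11.4 CPM on control. Without overlap between the diets, it fell by 4.39 ± 0.51 on the log2 scale (adjusted p = 0.000906). Dkk2, a ligand of the LRP co-receptors, had 0.416, 0.573, 0.881 and 0.402 CPM on VA-free and 6.49, 3.29, 5.91 and 3.86 CPM on control. No VA-free library reached the lowest control library. Dkk2 fell by 3.17 ± 0.33 on the log2 scale (adjusted p = 0.000618). Dkk1, the best known LRP antagonist, was near the limit of detection, with 13, 12, 2 and 4 counts on VA-free and 10, 3, 1 and 2 on control. Its log2 fold change of 0.62 ± 0.93 did not pass the test (adjusted p = 0.635). Wif1, the Wnt inhibitory factor that binds the ligands directly, had 0.267, 0, 0.925 and 0.684 CPM on VA-free and 11, 11.9, 8.43 and 3.88 CPM on control, with the libraries of control 1 the highest. The fold change on the log2 scale was -4.54 ± 1.05 (adjusted p = 0.0127). Without VA-free 1 the adjusted p was 0.0551 and without control 1 it was 0.052, with log2 fold changes of -4.35 and -3.96. Calls of Sfrp5, Sfrp4, Dkk2, Dkk3 and, among receptors, Fzd6 held in all 21 alternatives.

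**Figure D2:**
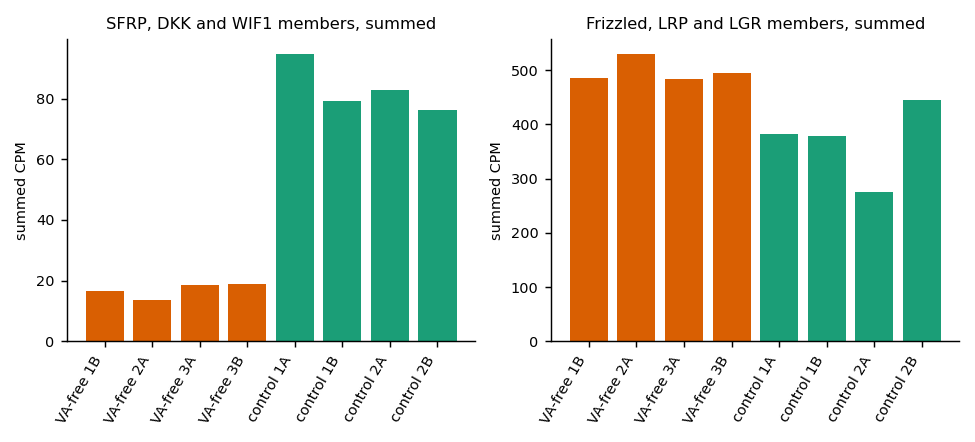
Summed CPM of the SFRP, DKK and WIF1 members (left) and of the Frizzled, LRP and LGR members (right) in each library, VA-free in orange and control in green, with axes from 0. The antagonist sum was 13.7 to 18.9 CPM on VA-free and 76.3 to 94.8 CPM on control. The receptor sum was 484 to 530 CPM on VA-free and 276 to 445 CPM on control. Neither sum was adjusted for the trend with transcript length.

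The promoter windows of Sfrp5 and Wif1, which fell most among the antagonists for which a window was at hand, and of Fzd7 and Lgr4, the receptors that rose with the lowest adjusted p, are shown to set genes that moved in opposite directions side by side. They run from 250 bases before to 50 bases after the RefSeq start (GRCm38.p6), on the strand of the gene. Capitals mark AGGTCA and its variants (AGTTCA, then also GGGTCA, then also GGTTCA), hexamers of the kind that retinoic acid receptors bind, and the core that TCF and LEF factors bind (CTTTGA, then also CTTTGT), on either strand. No match of the hexamers overlapped a match of the core in these windows.
Sfrp5, chr19:42202203-42202502, minus strand: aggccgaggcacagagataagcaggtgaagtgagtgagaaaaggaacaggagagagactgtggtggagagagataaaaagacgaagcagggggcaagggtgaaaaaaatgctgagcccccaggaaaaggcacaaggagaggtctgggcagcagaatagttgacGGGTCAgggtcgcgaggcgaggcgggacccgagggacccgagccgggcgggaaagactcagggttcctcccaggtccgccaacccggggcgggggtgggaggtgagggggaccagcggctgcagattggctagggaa
Wif1, chr10:121033754-121034053, plus strand: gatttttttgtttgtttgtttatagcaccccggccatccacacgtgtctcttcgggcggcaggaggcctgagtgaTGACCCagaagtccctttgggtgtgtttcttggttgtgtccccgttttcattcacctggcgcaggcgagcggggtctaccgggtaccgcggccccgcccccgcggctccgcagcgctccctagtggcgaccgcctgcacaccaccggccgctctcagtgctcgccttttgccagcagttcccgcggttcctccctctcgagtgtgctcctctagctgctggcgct
Fzd7, chr1:59481897-59482196, plus strand: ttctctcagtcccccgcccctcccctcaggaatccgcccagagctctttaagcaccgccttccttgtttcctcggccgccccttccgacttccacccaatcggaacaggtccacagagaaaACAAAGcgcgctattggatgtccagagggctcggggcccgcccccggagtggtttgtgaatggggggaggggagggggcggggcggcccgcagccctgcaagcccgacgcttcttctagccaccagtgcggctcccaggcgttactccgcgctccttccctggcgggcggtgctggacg
Lgr4, chr2:109917397-109917696, plus strand: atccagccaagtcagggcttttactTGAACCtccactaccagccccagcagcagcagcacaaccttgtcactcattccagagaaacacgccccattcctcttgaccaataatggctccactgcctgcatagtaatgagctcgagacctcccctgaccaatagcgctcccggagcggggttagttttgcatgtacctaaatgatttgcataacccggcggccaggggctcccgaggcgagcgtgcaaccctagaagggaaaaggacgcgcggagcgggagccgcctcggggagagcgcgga
Sfrp5, Wif1 and Lgr4 each held 1 hexamer and no TCF core, and Fzd7 held 1 TCF core and no hexamer. Such a hexamer was found in 43.7% of all 32851 windows and a TCF core in 31.2%. Of the 34 windows of the 31 members with one, 14 held a hexamer (41.2%) and 8 a TCF core (23.5%). A pair of hexamers in the same orientation, spaced by 5 or by 2 bases, was found in 0 of the 34 windows, and such pairs were in 0.0974% and 0.268% of all windows. The median GC content was 68.3% in members' windows and 52.7% over all windows. By call, 3 of 8 windows of lower members and 1 of 4 windows of higher members held a hexamer. A match of letters is a description and not a binding site.

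The R-spondins, which amplify Wnt signals by sparing receptors from turnover, were tested in 3 of 4 members, of which Rspo3 and Rspo4 entered the test only through their control counts. Rspo1 had 0.736, 0.627, 0.771 and 0.664 CPM on VA-free and 2.34, 0.657, 5.56 and 3.36 CPM on control. Control 1B lay among the VA-free libraries, so the libraries overlapped, although the mice did not. Rspo1 fell by 2.06 ± 0.48 on the log2 scale (adjusted p = 0.0129). Without control 2 it was -1.20 (adjusted p = 0.0854), and without control 1A it was -1.82 (adjusted p = 0.103). The call was also lost in limma on TPM, at -0.80 (adjusted p = 0.0598) with a pseudocount of 1 and -1.30 (adjusted p = 0.0631) with 0.1. Rspo3 had 0, 0, 2 and 0 counts on VA-free and 17, 22, 33 and 14 on control. The ratio of the summed counts was 50.8 in favor of control (95% exact interval 13.6 to 426, counting error only, as for all intervals and bounds from counts here), and the adjusted p was 0.00666. Rspo4 had 0 counts in each VA-free library and 48, 33, 1 and 26 on control, where control 2A stood out with 1 count. Control was at least 42.5-fold higher, taking 3 counts over the VA-free group as its upper limit, with an adjusted p of 0.00766. Without control 2B, Rspo4 no longer passed the filter. Rspo2 was not tested, with 0 counts on VA-free and 9 on control, all in 1A. Per length Rspo1 was the most abundant R-spondin in all 5 mice (0.642 to 3.26 TPM), and the next, Rspo4 and Rspo3, overlapped. The exons of Rspo3 share 13.1% of their bases with a gene on the other strand that was not among the transcripts counted, and with unstranded libraries reads of the pair cannot be told apart. Fzd5 (17.8%), Sfrp2 (16.1%), Wnt7b (6.6%), Wnt5a (4.6%), Axin2 (3.8%) and Fzd6 (3.2%) also share bases with such a gene, and Wnt11 (8.8%) with a pseudogene that had 3 counts over all libraries.

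Among the 19 Wnt ligands 9 were tested, and 3 were lower while 6 did not pass the threshold. The summed ligand level did not separate the diets (59.9 ± 10.6 CPM on VA-free and 59 ± 15.2 CPM on control). The most abundant ligand, Wnt4, was not among those that fell. Wnt4, a ligand known in muscle for a role in MuSC quiescence, had 36.5, 51.8, 28.8 and 35.7 CPM on VA-free and 32.9, 28.9, 18.2 and 29.2 CPM on control. VA-free 3A lay below 3 control libraries, and the log2 fold change of 0.56 ± 0.24 did not pass the test (adjusted p = 0.105). In TPM, where the median of all genes shifts by 0.19 on the log2 scale with a pseudocount of 1, the difference was 0.91 (adjusted p = 0.0189, limma). Wnt9a had 7.85, 7.29, 6.89 and 7.95 CPM on VA-free and 2.78, 8.95, 0.291 and 6.51 CPM on control. The control libraries spread from below to above all VA-free libraries. At 0.71 ± 0.28 the log2 fold change did not pass the test (adjusted p = 0.0793), and without control 1 it was 1.14 (adjusted p = 0.011) and without control 1B it was 1.28 (adjusted p = 0.0039).

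Wnt11, a ligand known mainly for signaling without beta-catenin, had 1.87, 4.62, 3.96 and 4.73 CPM on VA-free and 13.2, 11.4, 11.3 and 9.69 CPM on control. No libraries overlapped between the diets, and VA-free 1B was the lowest. Wnt11 fell by 1.65 ± 0.39 on the log2 scale (adjusted p = 0.0136). Without control 1 it was -1.47 (adjusted p = 0.0533). Wnt5a, likewise known for signaling without beta-catenin, had 2.05, 1.18, 1.45 and 1.49 CPM on VA-free and 6.61, 6.19, 5.68 and 4.6 CPM on control. It fell by 1.85 ± 0.33 on the log2 scale (adjusted p = 0.00473), again without overlap. In limma on TPM it was at -0.87 (adjusted p = 0.0501, pseudocount 1) and -1.31 (adjusted p = 0.0596, pseudocount 0.1). Wnt6 had 0.512, 0.448, 0.198 and 0.423 CPM on VA-free and 3.02, 4.9, 0.853 and 2.88 CPM on control. Control 2A was the control library closest to VA-free, yet the libraries did not overlap. A log2 fold change of -2.77 ± 0.48 passed the test (adjusted p = 0.00396), and without control 2B it was -2.52 (adjusted p = 0.0533). In order of mean TPM the leading ligands were Wnt4 (14.3), Wnt11 (6.21), Wnt9a (3.34), Wnt5b (3.18), Wnt5a (1.77), Wnt6 (1.62) and Wnt10a (0.994), and each of these neighbors overlapped over the 5 mice. The order also changed with diet, since on control Wnt11 (9.37 ± 1.21 TPM) was near Wnt4 (8.93 ± 1.61 TPM), whereas on VA-free Wnt4 (17.8 ± 4.41 TPM) was above Wnt11 (4.11 ± 1.49 TPM).

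The other 10 ligands were not tested. Wnt3a and Wnt7a had 0 counts in all 8 libraries. Wnt7b had 42, 3, 8 and 1 counts on VA-free and 0 on control, so that VA-free was at least 15.2-fold higher, although 42 of the 54 counts came from 1B. Wnt9b had 13 counts on control and 0 on VA-free (at least 5.12-fold higher on control), and Wnt10b had 5 and 0 (at least 1.97-fold). For Wnt16 the counts were 26 and 1, of which 24 were in control 2B, with a ratio of 30.7 (5.04 to 1259), and for Wnt1 they were 9 and 2, with a ratio of 5.31 (1.1 to 50.5). Wnt3, Wnt8a and Wnt8b had no more than 2 counts in any library. In the genome 4 pairs of Wnt genes are neighbors. Wnt6 lies 6194 bases from Wnt10a on chromosome 1 (GRCm38, 74771892 to 74785322 and 74791516 to 74804179), and Wnt10a had 0.928, 1.11, 1.94 and 1.05 CPM on VA-free and 0.456, 1.22, 1.17 and 1.58 CPM on control. Wnt10a overlapped between the diets where Wnt6 did not. Wnt9a lies 16176 bases from Wnt3a on chromosome 11, and the former was detected in every library while the latter was in none.

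**Figure D3:**
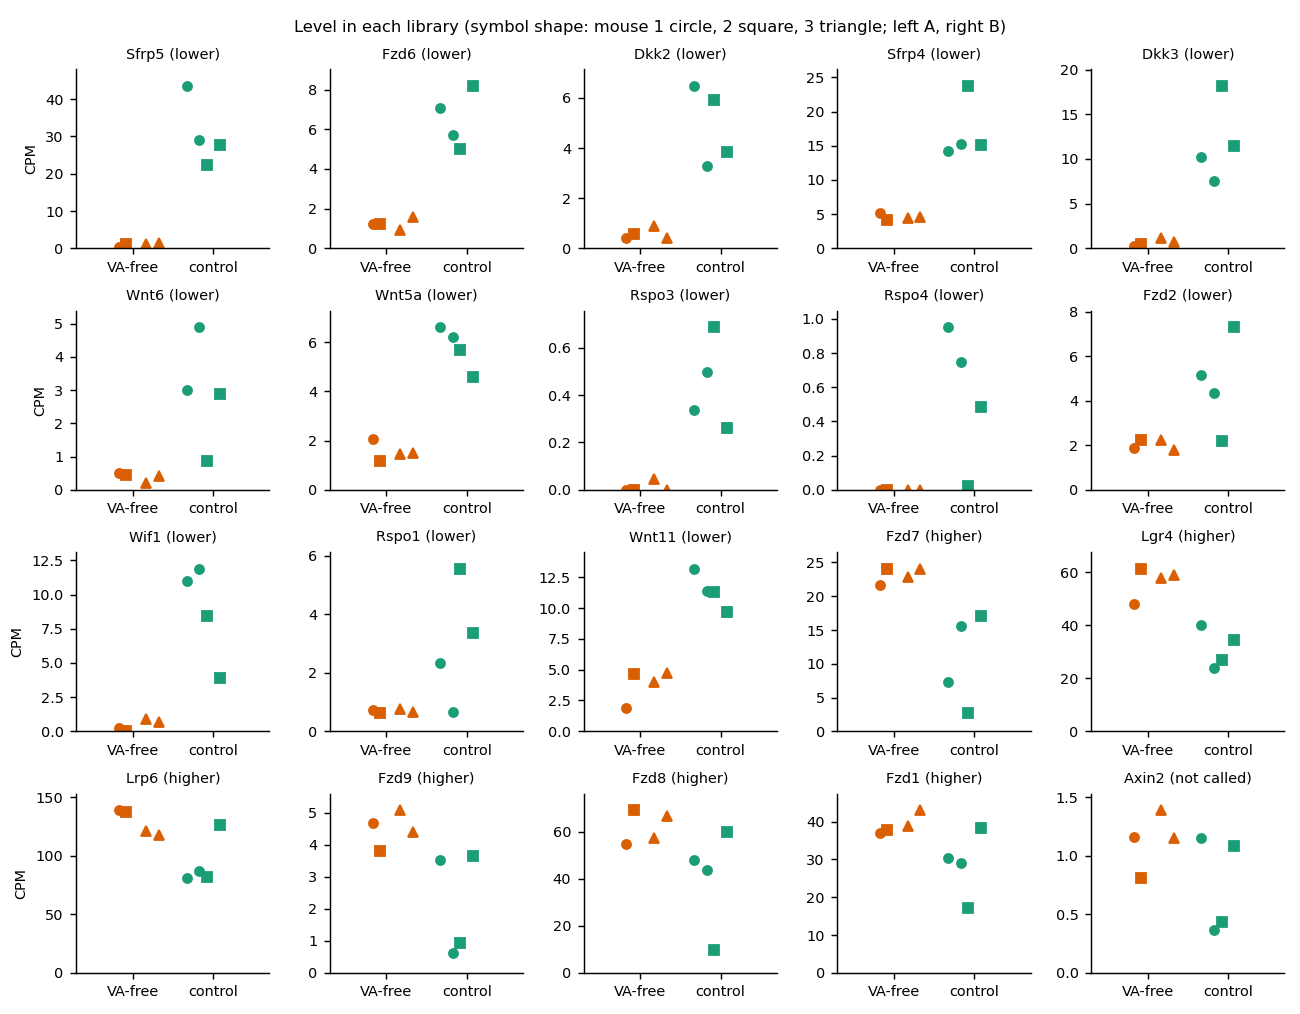
CPM in each library for the 13 members that were lower, the 6 that were higher and Axin2, each panel with its own axis from 0. VA-free libraries are orange and control libraries green, shapes stand for mice (circle 1, square 2, triangle 3), and A lies left of B. On these linear axes VA-free libraries mostly lie close together, although on VA-free Sfrp5 ranged from 0.331 to 1.31 CPM and Wnt11 from 1.87 to 4.73 CPM. Control 2A (the left green square) is often far from 2B, as for Fzd8 at 9.84 and 59.9 CPM.

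Per length, receptors made up most of the members' RNA, at 162 ± 6.44 TPM on VA-free and 94.4 ± 4.29 TPM on control, against 32.8 ± 5.03 and 30.5 ± 8.37 TPM for the ligands and 11.5 ± 1.11 and 52.1 ± 5.32 TPM for the antagonists. In CPM the summed level of 15 Frizzled, LRP and LGR members was 508 ± 19.6 CPM on VA-free and 374 ± 28.7 CPM on control, and by library 486, 530, 484 and 495 against 383, 378, 276 and 445 CPM. Every VA-free library exceeded every control library, with 2A the lowest. These receptor sums keep the trend with transcript length described below. In it the longest quartile of genes tested had a median log2 fold change of 0.53. With the trend removed, Fzd4, Lrp6, Fzd8 and Fzd1 were at -0.36, -0.13, -0.03 and -0.13 on the log2 scale. Lgr4, Fzd7, Fzd9, Fzd5 and Fzd10 were at 0.23, 0.53, 0.85, 0.02 and 0.87. The remaining receptors had negative values. The sum of MuSC markers (8646 to 9702 against 3035 to 5753 CPM) moved the same way as the receptor sum. So did that of fibro-adipogenic progenitor markers (12111 to 13279 against 4808 to 10279 CPM), of which Col3a1 made up most on VA-free. Of these 11 markers, however, 7 were lower and only 1, Col3a1, was higher. The sums of the other cell types listed above moved the other way. Of the 10 Frizzled receptors, Fzd7, Fzd9, Fzd8 and Fzd1 were higher, Fzd6 and Fzd2 were lower, and Fzd4, Fzd3, Fzd5 and Fzd10 did not pass the threshold.

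Fzd7, a receptor known in MuSCs for binding Wnt7a, had 21.7, 24, 22.8 and 24.1 CPM on VA-free and 7.34, 15.6, 2.66 and 17.1 CPM on control. The VA-free libraries were close together and all above the control libraries, which spread widely within both mice. Fzd7 was higher by 1.12 ± 0.16 on the log2 scale (adjusted p = 0.00179). It was 0.70 without control 2A (adjusted p = 0.0247) and 1.69 without 2B (adjusted p = 0.0945). Fzd9 had 4.69, 3.8, 5.09 and 4.41 CPM on VA-free and 3.53, 0.612, 0.936 and 3.64 CPM on control. Control 1A and 2B came close to VA-free while 1B and 2A were low. Fzd9 was higher by 0.98 ± 0.27 on the log2 scale (adjusted p = 0.0239). The call was lost without VA-free 1 (0.93, adjusted p = 0.0853), VA-free 3 (0.92, 0.0931), control 1 (0.97, 0.051), control 1A (1.59, 0.07), control 1B (0.62, 0.148), control 2A (0.61, 0.157) or control 2B (1.46, 0.0705).

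Fzd8 had 54.9, 69.3, 57.6 and 66.6 CPM on VA-free and 48.2, 43.9, 9.84 and 59.9 CPM on control. Control 2B lay among the VA-free libraries and 2A far below all others. The log2 fold change of 0.60 ± 0.17 passed the test (adjusted p = 0.028), but it was 0.22 without control 2A (adjusted p = 0.271) and 1.11 without control 2B (adjusted p = 0.244). It also lost the call without control 2 (0.39, 0.0915), VA-free 2 (0.53, 0.0875) or VA-free 3 (0.60, 0.078). Fzd1 had 37.1, 37.7, 38.8 and 43.1 CPM on VA-free and 30.5, 29, 17.1 and 38.3 CPM on control, with the same pattern in 2A and 2B. Fzd1 was higher by 0.43 ± 0.13 on the log2 scale (adjusted p = 0.0337). Without control 2A it was 0.18 (adjusted p = 0.35) and without 2B it was 0.69 (0.129), and the call was also lost without control 2 (0.34, 0.0801), VA-free 1 (0.45, 0.0847), VA-free 2 (0.45, 0.0814) or VA-free 3 (0.38, 0.131). Fzd4, which also serves as the receptor of norrin, had 133, 156, 137 and 139 CPM on VA-free and 124, 124, 110 and 115 CPM on control. It was the most abundant Frizzled in every mouse (22.5 to 42.2 TPM, next Fzd8 with 8.41 to 21.1 TPM). All VA-free libraries lay above all control libraries, and the log2 fold change of 0.28 ± 0.13 did not pass the test (adjusted p = 0.127).

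Fzd6, a receptor of the planar cell polarity branch, went the other way, with 1.22, 1.25, 0.903 and 1.57 CPM on VA-free and 7.08, 5.69, 5.01 and 8.2 CPM on control. Here 2A and 2B lay close to the other control libraries and well above VA-free. Fzd6 fell by 2.38 ± 0.25 on the log2 scale (adjusted p = 0.0006). Fzd2, which groups with Fzd1 and Fzd7 by sequence, had 1.89, 2.24, 2.25 and 1.81 CPM on VA-free and 5.16, 4.35, 2.21 and 7.31 CPM on control. Control 2A lay within the VA-free range. It fell by 1.22 ± 0.25 on the log2 scale (adjusted p = 0.00847), and without control 2B the value was -0.81 (adjusted p = 0.217). In limma on TPM with a pseudocount of 0.1 it was -0.74 (adjusted p = 0.101). The closely related receptors Fzd2 and Fzd7 thus lay on opposite sides. In order of mean TPM after Fzd4 came Fzd8 (15.3), Fzd1 (14), Fzd7 (6.99), Fzd5 (4.98), Fzd9 (2.72), Fzd3 (2.3), Fzd2 (1.35), Fzd6 (1.33) and Fzd10 (0.347). Ranges over the 5 mice overlapped between all of these neighbors other than Fzd6 and Fzd10.

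Lrp6, the co-receptor that Wnt ligands engage with a Frizzled, had 139, 137, 121 and 118 CPM on VA-free and 80.8, 86.8, 81.9 and 126 CPM on control. Control 2B lay within the VA-free range. The log2 fold change was 0.51 ± 0.13 (adjusted p = 0.0205). It was 0.33 without control 2A (adjusted p = 0.175), and the call was also lost without control 1 (0.39, 0.062), VA-free 1 (0.46, 0.0737) or VA-free 2 (0.49, 0.0672). Its partner Lrp5 had 16.8, 10.2, 13 and 10.7 CPM on VA-free and 13, 20.3, 3.47 and 13.4 CPM on control. The diets overlapped, and the log2 fold change was 0.05 ± 0.35 (adjusted p = 0.925). Lrp6 was above Lrp5 in every mouse (23.7 to 37.7 against 2.37 to 6.14 TPM).

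Lgr4, a receptor for R-spondins, had 48.2, 61.4, 57.8 and 59 CPM on VA-free and 40.2, 24, 27 and 34.3 CPM on control. The diets did not overlap, and 1A was the control library nearest to VA-free. The log2 fold change was 0.83 ± 0.15 (adjusted p = 0.00416), and it kept its call in all 11 fits that left out a mouse or library. Lgr5, of the same family and a stem cell marker in the gut, had 0.619, 0.394, 1.48 and 1.37 CPM on VA-free and 0.377, 3.74, 0.874 and 0.928 CPM on control. Control 1B alone stood above the VA-free libraries. Lgr5 had a log2 fold change of -0.80 ± 0.66 (adjusted p = 0.378), and without control 1B it was 0.39 (adjusted p = 0.694). Lgr6 had 0.917, 0.591, 0.881 and 0.644 CPM on VA-free and 1.31, 0.929, 0.479 and 1.04 CPM on control. The libraries overlapped, and the log2 fold change was -0.32 ± 0.46 (adjusted p = 0.621). Lgr4 was the main LGR transcript in every mouse (8.57 to 22.7 TPM, against at most 0.906 TPM for Lgr5).

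Axin2, a scaffold of the destruction complex that beta-catenin induces and that is widely used as a readout of the pathway, had 1.16, 0.806, 1.39 and 1.15 CPM on VA-free and 1.15, 0.363, 0.437 and 1.08 CPM on control. Control 1A and 2B lay among the VA-free libraries, while 1B and 2A were lower. The log2 fold change of 0.49 ± 0.43 did not pass the test (adjusted p = 0.411), and it passed in none of the 21 alternatives. These values rest on 16 to 109 counts per library. Among the 8 remaining tested members (Fzd3, Fzd5, Fzd10, Sfrp2, Wnt2, Wnt2b, Wnt5b and Wnt10a) the log2 fold changes lay between -2.11 and 1.27, with adjusted p from 0.12 to 0.852. Of these, Sfrp2 (-0.59 ± 0.39, adjusted p = 0.27) was called lower in the fit without control 2A. Dkk4, the last member, had 1 count on each diet.

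Of 80 further genes of the Wnt pathway, listed by hand, 79 were tested, 35 were higher (44.3%, against 18.9% of all genes tested) and 13 lower (16.5%, against 22.5%), with a median log2 fold change of 0.47 (0.00 over all genes tested). Without control 2B 14 were higher, in a fit that called 4476 of 17769 genes in place of 7459 of 17997. Of 7 tested other extracellular modulators 5 were lower and 2 did not pass. The lower ones included Serpinf1, a secreted factor that can bind LRP6 (-1.71 ± 0.13, adjusted p = 0.000273), and the SFRP relative Frzb (-3.88 ± 0.55, 0.00185). Sostdc1, a secreted LRP antagonist (-4.89 ± 0.58, 0.000919), was lower too, at 0.145 CPM on VA-free and 4.47 CPM on control. Dkkl1, also lower, had 0.0144 and 0.371 CPM. Both entered the test through the control mice where they are high, so the counts of lower genes that include them are a description. The feedback inhibitors Nkd1 and Nkd2, which bind Dishevelled, were both lower (-4.18 ± 0.30, 0.000254, and -4.83 ± 0.41, 0.000373). Nkd1 had 0.597, 0.68, 0.683 and 0.885 CPM on VA-free and 15.8, 14.4, 5.51 and 14.1 CPM on control.

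Inside the cell, all 3 Dishevelled genes, which relay the signal from Frizzled, were higher (Dvl1, Dvl2 and Dvl3, each by 1.21 on the log2 scale). Of 15 destruction complex genes 8 were higher and 7 did not pass, the higher ones including the scaffold Axin1 (1.25 ± 0.17, adjusted p = 0.00159) and the casein kinase Csnk1d (1.18 ± 0.17, 0.00193). The kinase Gsk3b (0.06 ± 0.22, 0.843) and the scaffold Apc (0.47 ± 0.18, 0.0826) did not pass. Of 18 genes for beta-catenin and nuclear factors 7 were higher, including Ctnnb1, which encodes beta-catenin (0.66 ± 0.13, 0.00644), and 2 lower, including Ctnnbip1, an inhibitor of its binding to TCF (-2.20 ± 0.15, 0.000246). Other receptors and co-receptors were higher in 9 of 12 and lower in 1, with Ptk7, a polarity co-receptor, at 1.66 ± 0.11 (0.000243) and the glypican Gpc3 at -2.10 ± 0.21 (0.000511). Planar cell polarity genes were higher in 6 of 14 and lower in 2. Ligand secretion and inactivation genes were higher in 1 and lower in 1 of 4 (Wls, which carries Wnt ligands to the surface, 0.02 ± 0.12, 0.923), and receptor turnover genes were higher in 1 of 4 (Kremen1, a DKK receptor, 1.78 ± 0.14, 0.000318). Of 26 tested known targets of beta-catenin 4 were higher (15.4%) and 7 lower (26.9%), shares near those of all genes tested, with a median of -0.23. The higher ones were Cd44, a cell surface receptor (0.76 ± 0.10, 0.00152), the receptor Tnfrsf19 (0.66 ± 0.13, 0.00651), the matricellular protein Ccn4 (0.62 ± 0.12, 0.00543) and the ephrin receptor Ephb3 (1.60 ± 0.24, 0.00237). The lower ones were Nkd1, Nkd2, Notum and Apcdd1, which are in the pathway list too, and Fst (-3.20 ± 0.47, 0.0021), Fgf18 (-3.32 ± 0.62, 0.00542) and Ascl2 (-2.50 ± 0.81, 0.0447). Ascl2, at 0.042 CPM on VA-free and 0.253 CPM on control, entered the test through the control mice. The count of lower targets is thus a description. The targets Myc (0.48 ± 0.16, 0.0527) and Ccn1 (-0.09 ± 0.13, 0.639) did not pass.

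**Figure D4:**
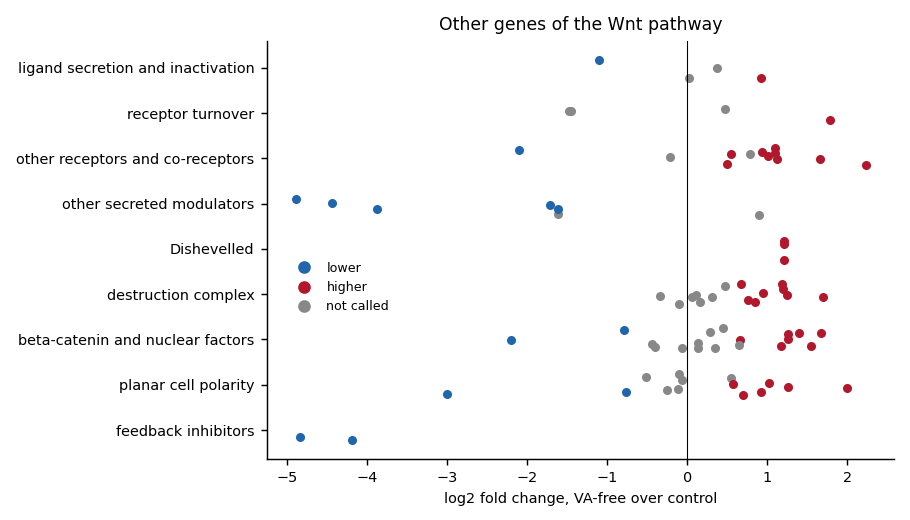
Log2 fold change, VA-free over control, of the 79 tested genes of the Wnt pathway that are no members, by role, with lower genes in blue (13), higher genes in red (35) and others in gray, spread vertically for legibility. All 3 Dishevelled genes lie above 0, and the feedback inhibitors Nkd1 and Nkd2 lie at -4.18 and -4.83.

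The calls moved with transcript length. The 6 higher members had a median length of 4715 bases and the 13 lower ones of 2371 bases, against 2122 bases over all genes tested. Over all genes the median log2 fold change was -0.63 in the shortest quartile and 0.53 in the longest. Whether this trend is technical cannot be told from these files, so both sets of calls are given. When this trend was removed, all 13 lower members were still lower, whereas of the 6 higher members Fzd7 (0.53, adjusted p = 0.0452) and Fzd9 (0.85, adjusted p = 0.0484) passed and 4 did not. Lgr4 was then at 0.23 (adjusted p = 0.319), Fzd8 at -0.03 (0.934), and Fzd1 and Lrp6 both at -0.13 (0.482 and 0.451). Limma on TPM, a fit that did not remove this trend, called 11 members higher. There the median log2 fold change of all genes was 0.19 (pseudocount 1) or 0.35 (pseudocount 0.1), in place of 0.00. Of the other pathway genes 23 were higher and 12 lower after the trend was removed, in place of 35 and 13. Over all genes 5302 of 17997 passed the threshold after the removal, in place of 7459.

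**Figure D5:**
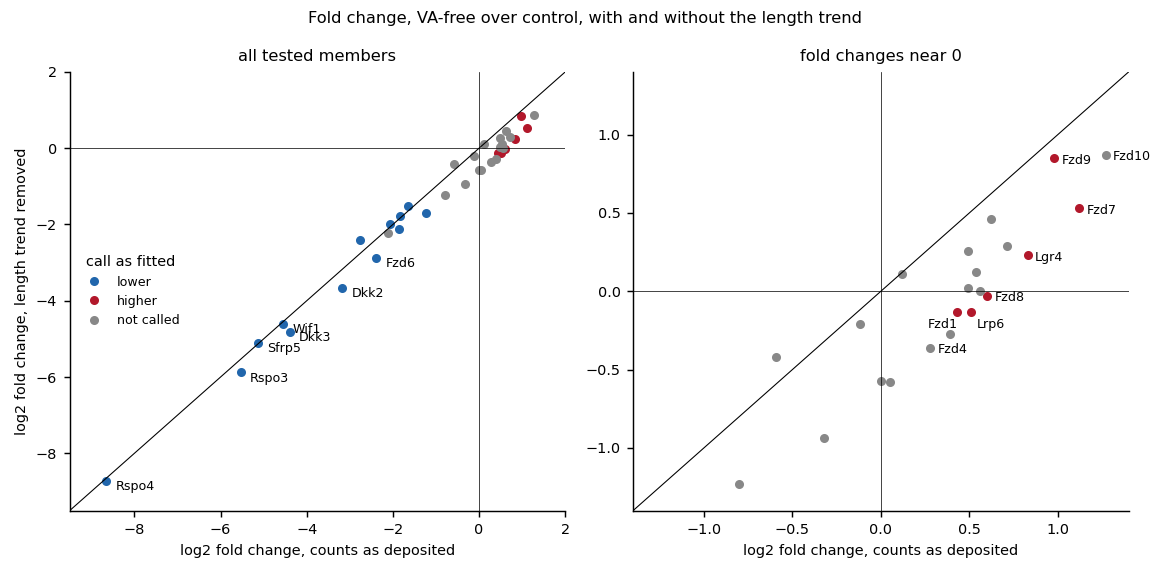
Log2 fold change, VA-free over control, of the 36 tested members as fitted (x axis) and after removal of the trend with transcript length (y axis), over the whole range (left) and near 0 (right), with the line of equality. The lower members (blue) stay far below 0, and of the 6 higher members (red) 3 lie below 0 on the y axis.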

How the data were processed

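Reads of 75 bases, single-end, from unstranded Nextera XT libraries of SMART-Seq cDNA were assigned to Ensembl 96 mouse transcripts (GRCm38) with kallisto 0.46.2 (version per the submitters' processing notes). The authors deposited the resulting estimated counts per transcript, without normalization between libraries. The deposited TPM values sum to 1000000 in each library, so no depth can be read from them. For their own comparison the authors used tximport and DESeq2.

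Here, estimated counts were added per gene (GENCODE M21) and over the libraries of a mouse, since A and B share an animal, and rounded. Transcripts without a gene (0.647% to 0.756% of counts) were left out. The 3 VA-free and 2 control mice were compared in R 4.3.3 with edgeR 4.0.16, by its quasi-likelihood test after TMM scaling and filterByExpr, and p-values were adjusted by Benjamini-Hochberg. Standard errors come from the F statistic. The control spread rests on 1 difference between animals. Counting error is small for abundant members and large for those with few counts. Alternatives were DESeq2 1.42.0, limma 3.58.1 on log2(TPM + 1) and log2(TPM + 0.1), other normalizations and filters, 8 libraries as separate samples, the replicate number as a block, removal of the length trend, and fits without 1 mouse or 1 library. The procedure was tested on simulated counts. Members, lists and tests were chosen with earlier results of these data known. Members past the threshold, or among the 3 with the highest mean TPM of their role, are given in every library, and up to 4 genes per role of the pathway and target lists are named. Wnt10a was added for its place beside Wnt6, the higher and lower beta-catenin targets to complete those counts, and Col3a1 among the markers, after values had been seen. Promoter windows are from RefSeq (GRCm38.p6), in which 31 of 48 members had an entry.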

Additional observations from a re-analysis of the deposited data

Results flagged for a closer look

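In 72 groups of 4 libraries, 5 members had a library flagged by its gap to the nearest other library, relative to the range of the group. The flag was a ratio above Dixon's 95% critical value for 4 values. Chance gives it in about 1 in 20 groups of independent values, and libraries A and B of a mouse are not independent. Lgr5 was at 3.74 CPM in control 1B and at 0.377 to 0.928 CPM in the other control libraries, and 76.5 of its estimated counts there were on a transcript with 0 counts in all other libraries. Lrp6 was at 126 CPM in control 2B and at 80.8 to 86.8 CPM in the others, and Sfrp4 was at 23.8 CPM in control 2A and at 14.2 to 15.2 CPM in the others. Rspo3 was at 0.044 CPM in VA-free 3A and Wnt2 at 0.288 CPM in VA-free 1B, each with 0 in the other VA-free libraries. With only 1 library above 0 the gap equals the range at any value, so these groups are always flagged. The Rspo3 value rests on 2 counts.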

How the results depend on the processing

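The number of lower members was 13, and it was between 10 and 14 over the 11 fits that left out a mouse or library (10 without control 2B, 14 without control 2A). The number of higher members was 6, and it was 1 with 8 libraries as separate samples, 2 with the replicate block, 2 with the length trend removed, 11 with TPM and a pseudocount of 1, 11 with TPM and a pseudocount of 0.1, and between 2 and 7 when a mouse or library was left out (2 without control 2A, 2 without control 2B, 3 without any 1 of the VA-free mice). The number of higher pathway genes was 35, with 23 after removal of the length trend and between 14 (without control 2B) and 42 (without control 1) when a mouse or library was left out. Calls over all genes also moved, from 7459 of 17997 in the main fit to 5242 with the replicate block and 5302 with the length trend removed. They numbered 6219 of 16007 with 8 libraries as separate samples and 4476 of 17769 without control 2B. With TPM the median of all genes shifts by 0.19 (pseudocount 1) and 0.35 (pseudocount 0.1). The replicate numbers name different mice. Deviations from the diet means correlated at -0.065 and 0.01 between mice of the same number. With 2 control mice, whose deviations mirror each other, these values cannot show whether the numbers pair the mice. The block left 11 lower and 2 higher members, without Fzd2 (-1.22, adjusted p = 0.0579) and Rspo1 (-1.92, adjusted p = 0.0556) among the lower. The log2 fold change of Sfrp1 (0.00) was -0.01 with DESeq2, -0.01 with RLE and -0.03 with upper quartile normalization, -0.02 without a filter, -0.18 with the replicate block and -0.57 with the length trend removed. With the length trend removed Fzd1 was at -0.13, Fzd4 at -0.36, Fzd8 at -0.03, Lrp5 at -0.58 and Lrp6 at -0.13. When a mouse or library was left out, Sfrp1 ranged from -0.32 to 0.39, Lrp5 from -0.37 to 0.64, Dkk1 from -0.05 to 1.83, Lgr5 from -1.50 to 0.39 and Lgr6 from -0.61 to 0.03, so that each was found on both sides of 0. With TPM Lgr6 was at 0.05 and 0.17 (pseudocounts 1 and 0.1). The cause was not tested. Dkk1 had 1 to 13 counts per library, and Wnt3a and Wnt7a had 0.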
